A study of Mus musculus with 12 samples.

Results

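The genes described here are Ttr, Kl, Folr1, Clic6, Sostdc1, Prlr, Aqp1, Enpp2, Igf2 and Igfbp2, which are 10 of the 24079 genes in the count table. The first 8 are characteristic of the epithelium of the choroid plexus, and Igf2 and Igfbp2 are a growth factor and a binding protein that the same tissue makes. They were picked by symbol, with Igfbp2 included because it stood among the higher genes of the mutant in these same libraries. Their differences between genotypes are therefore given as descriptions. Test results for them from the fits over all genes are printed, and nothing is read from these. All 10 had reads in every library and entered the fits over 17823 genes.

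Ribosome-bound mRNA was measured in the hippocampus of 6 wild-type and 6 Fmr1-/y libraries, the mutant lacking the fragile X mental retardation protein. Both genotypes carried Wfs1-CreERT2 and the RiboTag allele, by which tamoxifen-activated Cre places a hemagglutinin tag on the ribosomal protein Rpl22 in cells that use the Wfs1 promoter. In the hippocampus these are mainly pyramidal neurons of the CA1 field. Mice were males of 2 to 6 months that had received tamoxifen (100 mg/kg) on 3 days, with tissue taken 1 week later, and each library pooled 4 to 6 mice from the whole hippocampus. RNA that co-precipitates from untagged cells remains in such a preparation, and input RNA was not analysed here. In this bulk material, fewer cells of a type and less RNA per cell cannot be told apart.

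The choroid plexus lines the brain ventricles as a folded sheet of epithelium that secretes cerebrospinal fluid. Its cells move ions, water, folate and hormones between blood and fluid, and they release carriers, enzymes and growth factors into it. In the lateral ventricle it lies beside the hippocampus. Igfbp2 binds insulin-like growth factors outside the cell, and Igf2 is one of the ligands it binds.

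Libraries held 39400980 to 65565479 reads. Fmr1 had 1971 to 2608 reads in the wild-type libraries and 0 or 1 in the Fmr1-/y libraries. Fmr1-/y replicate 1 stood apart in having the highest level of 8 of the 10 genes and the lowest level of Rn45s, the precursor of ribosomal RNA. Rn45s ranged from 4356 CPM in that library to 40232 in wild-type replicate 6, a 9.24-fold range. CPM are reads per 1000000 reads of the library, after the scaling of library sizes named in the next paragraph. Genotype differences and slopes of the 10 genes that turn on Fmr1-/y replicate 1 are given with and without it. Those of the marker lists are given with all libraries only.

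The name choroid plexus was checked against 35 other markers of its epithelium. Reads were present for 34 of them and Mfrp had 0 reads in every library. Levels throughout are CPM scaled by the trimmed mean of M-values (TMM). The summed level of the 34 was 997 to 1611 CPM in the wild-type and 1036 to 2106 CPM in the Fmr1-/y libraries. Markers of CA1 pyramidal neurons, the labelled cell type, were all present, and their summed level was 8777 to 10874 CPM in the wild-type and 8431 to 10058 CPM in the Fmr1-/y libraries. The summed level of the 10 genes, which the sum of the 34 leaves out, was 10166 to 17446 CPM in the wild-type and 11506 to 24843 CPM in the Fmr1-/y libraries. The 10 genes together held 1.01 to 1.80% of all reads in the wild-type and 1.15 to 2.56% in the Fmr1-/y libraries. Ttr alone took 0.591 to 1.13% in the wild-type and 0.776 to 1.69% in the Fmr1-/y libraries.

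One window around a transcription start is shown for each of Igfbp2, Kl, Aqp1 and Igf2, and each holds the letters GGGCGG on either strand. For Igf2 the window with the most such places is shown. Windows without these letters, among them all of Prlr, are not shown. Igfbp2, Kl and Aqp1 passed the test of following Ttr across libraries, and Igf2 did not. RefSeq sequences of build GRCm38.p6, the assembly also called mm10, were matched by symbol for 5 of the 10 genes, in 11 windows of 250 bases before to 50 bases after a start. Each window is written 5′ to 3′ on the strand of its gene. Capitals mark the letters GGGCGG, the core of the GC box read by factors of the Sp family, or the same letters on the other strand. The Igfbp2 window is at chr1:72824230-72824529 (plus strand), the Kl window at chr5:150952357-150952656 (plus strand), the Aqp1 window at chr6:55336049-55336348 (plus strand) and the Igf2 window at chr7:142657447-142657746 (minus strand).
Igfbp2: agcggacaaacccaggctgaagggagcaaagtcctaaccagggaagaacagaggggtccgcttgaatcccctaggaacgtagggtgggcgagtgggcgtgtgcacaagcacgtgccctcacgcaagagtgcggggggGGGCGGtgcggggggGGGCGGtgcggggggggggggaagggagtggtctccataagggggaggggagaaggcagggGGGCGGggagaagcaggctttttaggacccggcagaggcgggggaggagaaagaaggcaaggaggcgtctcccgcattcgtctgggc
Kl: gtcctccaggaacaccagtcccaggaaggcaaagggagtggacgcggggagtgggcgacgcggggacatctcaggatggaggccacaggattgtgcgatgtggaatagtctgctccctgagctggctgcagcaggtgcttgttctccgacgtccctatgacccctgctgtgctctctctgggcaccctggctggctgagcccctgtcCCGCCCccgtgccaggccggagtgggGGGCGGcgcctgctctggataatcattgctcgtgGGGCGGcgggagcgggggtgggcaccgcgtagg
Aqp1: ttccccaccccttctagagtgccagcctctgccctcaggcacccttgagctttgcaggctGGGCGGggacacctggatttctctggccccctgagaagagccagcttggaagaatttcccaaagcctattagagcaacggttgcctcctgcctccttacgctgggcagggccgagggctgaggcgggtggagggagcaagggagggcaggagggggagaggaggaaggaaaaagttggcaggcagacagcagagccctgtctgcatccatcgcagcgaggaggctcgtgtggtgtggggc
Igf2: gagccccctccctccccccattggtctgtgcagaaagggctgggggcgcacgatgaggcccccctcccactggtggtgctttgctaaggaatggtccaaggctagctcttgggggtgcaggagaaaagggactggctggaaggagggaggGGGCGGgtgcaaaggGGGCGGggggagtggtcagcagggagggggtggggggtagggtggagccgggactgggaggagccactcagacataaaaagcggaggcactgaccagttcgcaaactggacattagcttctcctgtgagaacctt
The GC box letters occurred 3 times in the Igfbp2 window, 3 times in the Kl window, once in the Aqp1 window and in 2 places in the Igf2 window. They were found, on either strand, in 5 of the 11 windows, and 35.7% of 32851 windows of the same length in the table held them. TAATCC, the letters of the site of Otx2, a homeobox factor of choroid plexus development, occurred in 1 of the 11 windows, another window of Igf2, against 7.06% of all windows. The GC box letters were absent from the other Igfbp2 window and from all 3 windows of Prlr, which also passed the test against Ttr. Of the 4 Igf2 windows, 2 held the GC box letters. These matches are descriptions of letters.

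In the same build, Igfbp2 lies at chr1:72824480-72852474, Kl at chr5:150952607-150993817, Folr1 at chr7:101858331-101870788, Igf2 at chr7:142650768-142666816 and Aqp1 at chr6:55336299-55348555. Clic6 lies at chr16:92498147-92541241, Sostdc1 at chr12:36314169-36318452, Prlr at chr15:10177238-10349190 and Enpp2 at chr15:54838901-54952789. Folr1 and Igf2 share chromosome 7 and Prlr and Enpp2 share chromosome 15, in each case far apart. Exon lengths were those of the merged GENCODE exons of each gene, whereas reads had been counted on UCSC gene models. Per kilobase of these exons the order of the mean over all 12 libraries, from high to low, was Ttr, Enpp2, Igf2, Igfbp2, Clic6, Folr1, Kl, Aqp1, Sostdc1 and Prlr. Ttr was at 7018 ± 1727 CPM per kilobase (SD, n = 6) in the wild-type libraries, and Enpp2, next in order, at 568 ± 162. Igf2 followed at 169 ± 39.2. Of the neighbours that follow, Igfbp2 (49.3 ± 7.43) and Clic6 (53.5 ± 14.3) differed by less than their SD, as did Aqp1 (16.2 ± 3.04) and Sostdc1 (16.6 ± 4.49), and in the wild type alone the order within both pairs was the opposite. Folr1 was at 40.2 ± 8.32. Prlr was lowest, at 2.50 ± 0.599 CPM per kilobase of an exon model of 15339 bases. Its place rests on that length: in CPM its mean over the 12 libraries was 44.6, above the 33.1 of Sostdc1.

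Ttr encodes transthyretin, which carries thyroxine and retinol-binding protein and is secreted into the cerebrospinal fluid. Its level was 5927 to 11203 in the wild-type libraries with a median of 7702, and 7801 to 16437 in the Fmr1-/y libraries with a median of 10560. The genotypes overlapped: 2 Fmr1-/y libraries, replicates 1 and 4, lay above all wild-type libraries. The mean of the Fmr1-/y libraries was 136% of the wild type on the fitted scale, a log2 fold change of 0.44 (SE 0.17), and without Fmr1-/y replicate 1 it was 0.31.

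Igfbp2 showed the largest fitted difference between genotypes of the 10 genes. It was at 71.6 to 113 CPM in the wild-type libraries (median 88.7) and at 111 to 204 CPM in the Fmr1-/y libraries (median 131). The separation was nearly complete, with 5 of 6 Fmr1-/y libraries above every wild-type library. The overlap came from wild-type replicate 4 (113 CPM) and Fmr1-/y replicate 3 (111 CPM). The fitted level in Fmr1-/y was 154% of the wild type, a log2 fold change of 0.62 (SE 0.13), and it was 0.49 without Fmr1-/y replicate 1. Igf2 differed least between genotypes, with 598 to 1227 CPM in the wild type (median 982) and 487 to 1736 CPM in Fmr1-/y (median 1044). The extremes of Igf2 were both in Fmr1-/y libraries, replicate 2 low and replicate 4 high, and its log2 fold change was 0.08 (SE 0.23). The sign of the Igf2 difference turned when a single library was left out, to -0.14 without Fmr1-/y replicate 4 and -0.03 without wild-type replicate 1, and it was 0.22 without Fmr1-/y replicate 2.

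Among receptors, Folr1, the folate receptor that carries folate across the epithelium, was at 70.4 to 115 CPM in the wild type (median 88.7) and 104 to 202 CPM in Fmr1-/y (median 127). Folr1 came nearest to Igfbp2: 4 of 6 Fmr1-/y libraries lay above all wild-type libraries, and the log2 fold change was 0.56 (SE 0.16), or 0.42 without Fmr1-/y replicate 1. Kl, which encodes klotho, a co-receptor for fibroblast growth factors, was at 172 to 306 CPM in the wild type (median 211) and 196 to 384 CPM in Fmr1-/y (median 256). Kl thus overlapped widely, with a log2 fold change of 0.33 (SE 0.16), or 0.22 without Fmr1-/y replicate 1. Prlr, the prolactin receptor, was at 25.7 to 50.1 CPM in the wild type (median 40.4) and 27.8 to 78.4 CPM in Fmr1-/y (median 44.1). Only Fmr1-/y replicates 1 and 4 were above the wild-type range of Prlr, and its log2 fold change was 0.41 (SE 0.22), or 0.29 without the first of these and 0.25 without the other.

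Of the channel genes, Aqp1, a water channel of the surface facing the ventricle, was at 33.6 to 55.2 CPM in the wild type (median 42.0) and 37.8 to 85.1 CPM in Fmr1-/y (median 53.2). Its log2 fold change was 0.43 (SE 0.17), with 3 of 6 Fmr1-/y libraries above the wild-type range. Clic6, of the chloride intracellular channel family, was at 160 to 300 CPM in the wild type (median 198) and 166 to 397 CPM in Fmr1-/y (median 244), a log2 fold change of 0.35 (SE 0.19). The genotypes overlapped for Clic6 except for Fmr1-/y replicates 1 and 4. Of the secreted proteins, Enpp2 encodes autotaxin, the enzyme that makes lysophosphatidic acid, and is also made by oligodendrocytes. Enpp2 was at 2476 to 4851 CPM in the wild type (median 2967) and 2550 to 5904 CPM in Fmr1-/y (median 3818), a log2 fold change of 0.35 (SE 0.19). Sostdc1, an extracellular inhibitor of BMP and Wnt signalling, was at 21.3 to 41.8 CPM in the wild type (median 29.0) and 22.3 to 56.2 CPM in Fmr1-/y (median 33.6), a log2 fold change of 0.30 (SE 0.19). For both, replicates 1 and 4 of Fmr1-/y were again the highest libraries of all. Without Fmr1-/y replicate 1 the log2 fold change was 0.28 for Aqp1, 0.20 for Clic6, 0.22 for Enpp2 and 0.14 for Sostdc1.

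**Figure D1:**
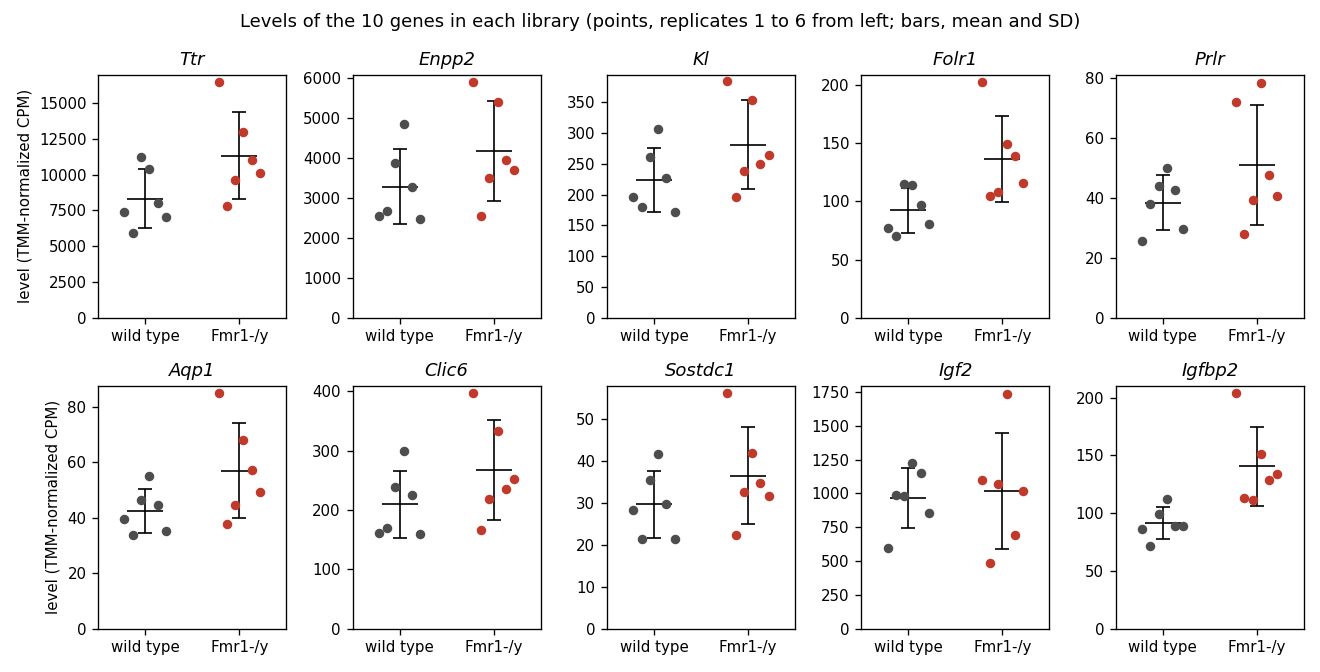
Level of each of the 10 genes in TMM-normalized CPM (linear axis from 0), with 1 point per library in order of replicate number and bars for mean ± SD (n = 6 per genotype). Igfbp2 shows the least overlap, with 5 of 6 Fmr1-/y libraries above every wild-type library, and Igf2 spans 487 to 1736 CPM within Fmr1-/y alone.

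With all libraries, the 10 genes had fitted log2 fold changes above 0, as did 51.4% of the 17823 genes, and that of Igf2 was below 0 without either of the libraries named above. For 0 of the 10 did the genotypes not overlap, against 0.213% of all genes with every Fmr1-/y library above every wild-type library. In edgeR (quasi-likelihood test, Benjamini-Hochberg adjusted over all genes), 0 of the 10 had an adjusted p under 0.05, where 0.0224% of all genes did and 0.0% did so as higher in Fmr1-/y. At an unadjusted p under 0.05 there were 4 of the 10 (Ttr, Folr1, Aqp1 and Igfbp2), against 7.96% of all genes in either direction and 4.29% as higher in Fmr1-/y. DESeq2 passed 1 of the 10, Igfbp2, against 0.471% of all genes in either direction and 0.174% as higher. Nothing is read from these counts, because the genes were chosen with this comparison known.

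Whether Igfbp2 follows Ttr was asked within genotype, so that the difference between genotypes could not produce the relation. Igfbp2 rose and fell with Ttr: after subtracting the genotype means, the log2 CPM of both genes gave Pearson's r = 0.912 over 12 libraries (two-sided exact permutation within genotype, p = 1.37e-04, adjusted over 3 relations p = 4.11e-04) and Spearman's rho = 0.846 (exact p = 0.00119, adjusted p = 0.00356). Without wild-type replicate 2 and Fmr1-/y replicate 1, the libraries farthest from the median of Ttr, r was 0.839 (exact permutation p = 0.00618). The relation was also found in each genotype taken alone. In the wild-type libraries r was 0.902 (n = 6, exact permutation p = 0.0153, adjusted p = 0.0153) and rho was 0.886 (exact p = 0.0333, adjusted p = 0.0333). In the Fmr1-/y libraries r was 0.938 (n = 6, exact permutation p = 0.00694, adjusted p = 0.0104) and rho was 0.886 (exact p = 0.0333, adjusted p = 0.0333). Without the 2 libraries farthest from the median, r was 0.907 in the wild type (n = 4, exact permutation p = 0.125) and 0.863 in Fmr1-/y (n = 4, exact permutation p = 0.167). The difference between the genotypes' correlations was not tested.

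The same question was put to every gene with an edgeR quasi-likelihood fit of the slope on the log2 CPM of Ttr, with genotype as a term. A slope of 1 means that a gene doubled when Ttr doubled. Of the 9 genes other than Ttr, 8 had a positive slope past an adjusted p of 0.05, whereas 141 of all 17822 genes fitted did (0.791%). No gene passed with a negative slope by edgeR (0.0%), where 523 had an unadjusted p under 0.05 and DESeq2 passed 11. A positive slope at an unadjusted p under 0.05 in edgeR was found for 1005 of the 17822 genes. The slopes were 1.11 (SE 0.12, adjusted p = 3.0e-04) for Sostdc1, 1.06 (SE 0.13, adjusted p = 5.8e-04) for Enpp2, 1.04 (SE 0.13, adjusted p = 7.4e-04) for Clic6 and 1.03 (SE 0.22, adjusted p = 0.0332) for Prlr. They were 0.93 (SE 0.11, adjusted p = 5.9e-04) for Aqp1, 0.90 (SE 0.11, adjusted p = 5.5e-04) for Kl and 0.89 (SE 0.09, adjusted p = 2.6e-04) for Folr1. Igfbp2 had a slope of 0.70 (SE 0.10, adjusted p = 0.00199), so that it was 1.63-fold higher for each doubling of Ttr. Igf2 did not pass, with a slope of 0.74 (SE 0.32, adjusted p = 0.519) and an unadjusted p under 0.05. Without Fmr1-/y replicate 1, Igfbp2 lost the threshold, with a slope of 0.57 and an adjusted p of 0.0546 in edgeR, and 44 genes passed in all, 6 of the 9 among them. Prlr lost the threshold without any one of Fmr1-/y replicates 1, 2, 3 and 6 and wild-type replicates 4, 5 and 6, with an edgeR adjusted p of 0.0511 to 0.203. The number of genes passing was 90 without Fmr1-/y replicate 2 and 76 without wild-type replicate 4, with 7 of the 9 in each.

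**Figure D2:**
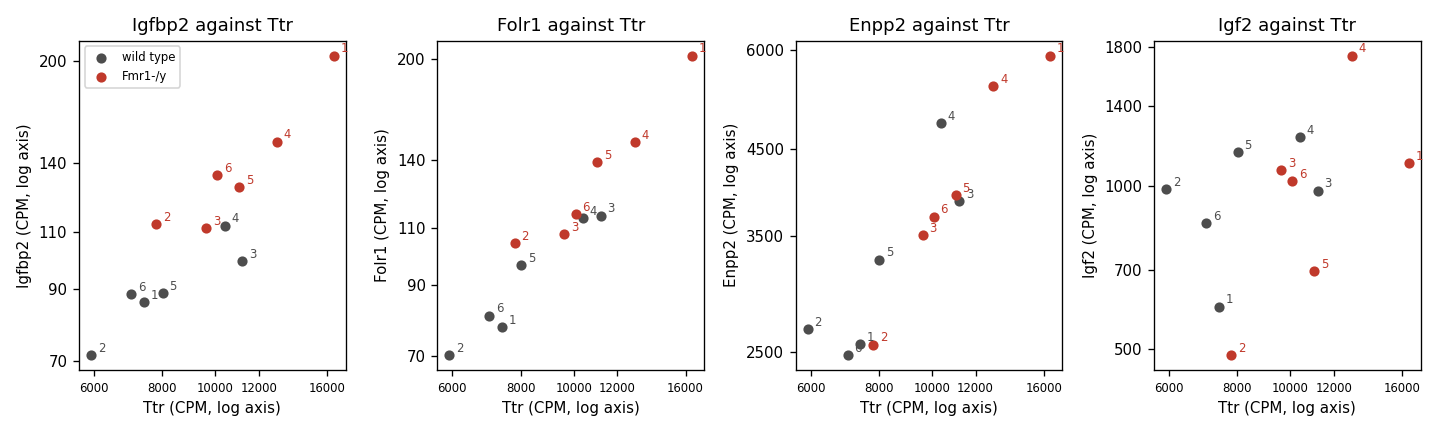
Igfbp2, Folr1, Enpp2 and Igf2 against Ttr in each of the 12 libraries, in CPM on log axes, with numbers giving the replicate. Igfbp2, Folr1 and Enpp2 rise with Ttr in both genotypes, and Igf2 is more scattered (r = 0.538).

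As a measure of likeness, r with Ttr over the 12 genotype-centred libraries was 0.965 for Folr1, 0.955 for Sostdc1, 0.938 for Aqp1, 0.935 for Kl, 0.922 for Enpp2, 0.912 for Igfbp2, 0.911 for Clic6, 0.795 for Prlr and 0.538 for Igf2. Among 13767 genes with a mean of at least 1 CPM these stood at ranks 3, 6, 18, 22, 30, 33, 35, 230 and 1129. By r with Ttr, Igfbp2 thus ranked between Enpp2 and Clic6, among the genes used as markers of the epithelium. With the mean of the 34 other choroid plexus genes its r was 0.913, beside 0.984 for Enpp2 and 0.982 for Clic6. Only Prlr (0.909) and Igf2 (0.683) were lower. Of the 10 genes, Igfbp2 had the highest r with the means of the ependymal (0.752), astrocyte (0.552), meningeal (0.513), microglial (0.510) and endothelial (0.424) markers described below. Over the 45 pairs of the 10 genes r was 0.453 to 0.987 with a median of 0.911, and over the 36 pairs without Igf2 it was 0.718 to 0.987 with a median of 0.925. The lowest pair was Igf2 with Igfbp2, the ligand and its binding protein (0.453). The highest was Enpp2 with Clic6 (0.987). Igf2 was most like Prlr (0.838), and within genotype its r with Ttr was 0.377 in the wild type and 0.648 in Fmr1-/y. These values share libraries, depth and scaling, and are given without a test.

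Expressed against Ttr, the highest library was 1.30-fold (Folr1) to 2.66-fold (Igf2) the lowest, where in CPM it was 2.23-fold (Kl) to 3.56-fold (Igf2). Igfbp2 had 8.86 to 12.6 reads per 1000 Ttr reads in the wild-type libraries (11.2 ± 1.31, SD, n = 6) and 11.6 to 14.5 in the Fmr1-/y libraries (12.5 ± 1.18, n = 6). The genotypes overlapped in this ratio. Over all 12 libraries the highest Igfbp2 ratio was 1.64-fold the lowest, where the highest Igfbp2 level in CPM was 2.85-fold the lowest. Folr1 kept the steadiest ratio to Ttr, with 10.3 to 12.1 reads per 1000 Ttr reads in the wild type and 11.2 to 13.4 in Fmr1-/y and a coefficient of variation of 7.55%. Igf2 was the least steady, with 80.9 to 166 reads per 1000 Ttr reads in the wild type, 62.5 to 134 in Fmr1-/y and a coefficient of variation of 32.2%.

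With the log2 CPM of Ttr as a covariate, the fitted log2 fold change of Igfbp2 between genotypes was 0.30 (SE 0.08) in place of 0.62, and that of Folr1 was 0.16 (SE 0.07) in place of 0.56. The other 7 genes had values from -0.29 to -0.02: Aqp1 -0.02 (SE 0.09), Kl -0.08 (SE 0.09), Prlr -0.10 (SE 0.18), Clic6 -0.13 (SE 0.11), Enpp2 -0.14 (SE 0.10), Sostdc1 -0.20 (SE 0.10) and Igf2 -0.29 (SE 0.25). Igfbp2 and Folr1 were the 2 genes that kept a value above 0. With the mean log2 CPM of the 34 other choroid plexus genes as the covariate, Igfbp2 was at 0.33 (SE 0.08), Folr1 at 0.21 (SE 0.07), Aqp1 at 0.02 (SE 0.07) and Ttr at 0.05 (SE 0.07). These covariates were measured in the same libraries as the genes, and the values are descriptions like the differences they start from.

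**Figure D3:**
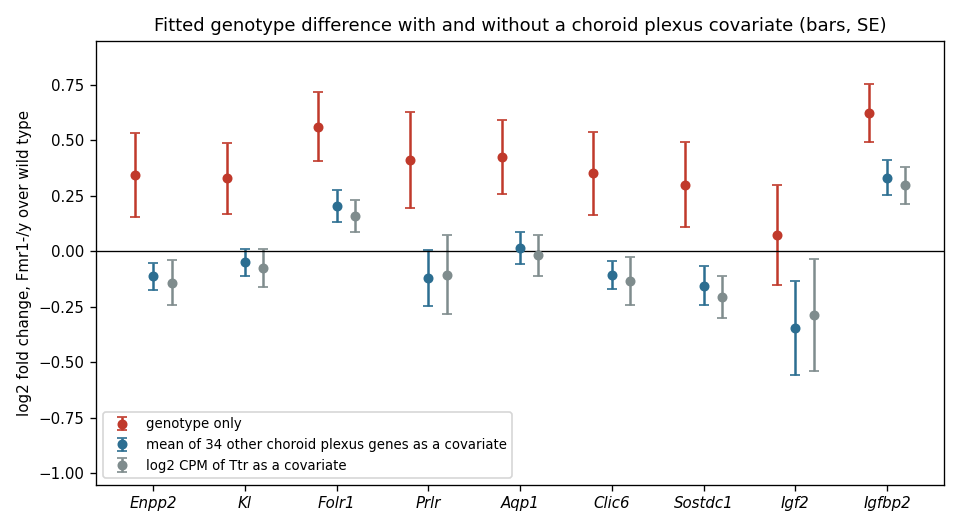
Fitted log2 fold change of Fmr1-/y over wild type (± SE, 12 libraries) for the 9 genes other than Ttr, with genotype only, with the mean of 34 other choroid plexus genes as a covariate and with Ttr as a covariate. Igfbp2 stays at 0.33 and 0.30 and Folr1 at 0.21 and 0.16 with the covariates, and the others lie close to or below 0.

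Of the 34 other choroid plexus genes tested, 29 had a positive slope on Ttr past the adjusted threshold in edgeR and 0 a negative one (0 at an unadjusted p under 0.05). DESeq2 passed 32. Their median r with Ttr was 0.891, against 0.002 over all genes. The most abundant by reads were Ace, the angiotensin-converting enzyme (slope 0.93, SE 0.13, adjusted p = 0.00199), Car12, a carbonic anhydrase (0.60, SE 0.11, adjusted p = 0.0122), Slc31a1, a copper transporter (0.79, SE 0.12, adjusted p = 0.00325), and Sulf1, a sulfatase of heparan sulfate (1.13, SE 0.18, adjusted p = 0.00451). The 5 that did not pass were Slc29a4, Cldn1, Wdr86, Slc39a4 and Cldn3, with slopes of 0.44 to 0.88. Between genotypes, 34 of 34 had a log2 fold change above 0 with a median of 0.38, beside a median of 0.004 over all genes and 0.38 over the 10 members. In edgeR 0 of the 34 passed between genotypes, 17 had an unadjusted p under 0.05, and DESeq2 passed 1, Steap1 (0.62, SE 0.16).

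The genes most like Ttr that are no members were 1500015O10Rik (r = 0.968), Tmem72 (0.967), Prkcq (0.963), Arsg (0.960), Kcne2 (0.954), Cab39l (0.954), Tmem98 (0.954), Slc37a2 (0.944), Otx2 (0.943) and Ccdc135 (0.941), over 12 libraries. Of these, 5 were on the list of choroid plexus markers, among them Kcne2, a potassium channel subunit of this epithelium, and Otx2. Those most like Igfbp2 were F11r (0.987), Ctsd (0.964), Acaa2 (0.959), Pcolce2 (0.958) and Vamp8 (0.958), none of which was on a list used here. F11r encodes a junctional adhesion molecule of epithelia and Ctsd the lysosomal protease cathepsin D. The slopes of these 5 on Ttr were 0.42 to 0.86, each past the adjusted threshold in edgeR. At the other end, BC037034 (-0.892), Srrm3 (-0.883), Apc2 (-0.879), Tbc1d22a (-0.876) and B3galt6 (-0.871) were the least like Ttr.

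Of the rest of the insulin-like growth factor system, 19 genes were tested. Of these, 0 had a slope on Ttr past the threshold in edgeR, 1 had an unadjusted p under 0.05, and DESeq2 passed 1. That gene was Igfbp7, a secreted binding protein, with a slope of 0.63 (SE 0.16, adjusted p = 0.102 in edgeR) and r = 0.798 with Ttr and 0.853 with Igfbp2. The median r of the list with Ttr was 0.164. The most abundant by reads were the binding proteins Igfbp5 (slope 0.15, SE 0.13) and Igfbp4 (-0.36, SE 0.18), the protease Htra1 (0.03, SE 0.16), and the receptor Igf1r (0.21, SE 0.13). Igf2r, which clears Igf2, was at 0.20 (SE 0.13), and H19, the imprinted neighbour of Igf2, at 0.09 (SE 0.42). Between genotypes the list had a median log2 fold change of -0.07, with 8 of 19 above 0 and 0 past the edgeR threshold, 2 at an unadjusted p under 0.05 and 0 in DESeq2.

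Markers of other cells that a dissected hippocampus can hold were set beside the members. Their counts of slopes at an unadjusted p under 0.05 stand beside 1005 positive ones among all 17822 genes in edgeR. Astrocytes also make Igfbp2. The 12 astrocyte markers had a median r with Ttr of 0.157, with 0 slopes past the threshold in edgeR, 3 at an unadjusted p under 0.05 and 0 in DESeq2. The mean of the astrocyte markers had r = 0.552 with Igfbp2 and 0.302 with Ttr. Their summed level was 2589 to 3134 CPM in the wild type and 2860 to 4285 CPM in Fmr1-/y, and 12 of 12 had a log2 fold change above 0, with a median of 0.24. Of these, Slc1a2, the glutamate transporter, was at 0.24 (SE 0.07), Aldoc at 0.29 (SE 0.12), Slc1a3 at 0.23 (SE 0.11) and Gfap at 0.27 (SE 0.12). In edgeR 0 passed, 8 had an unadjusted p under 0.05 and DESeq2 passed Slc7a10. With the astrocyte mean as a covariate, Igfbp2 was at 0.37 (SE 0.14) between genotypes, Folr1 at 0.34 (SE 0.18) and Ttr at 0.25 (SE 0.20). The remaining members were at 0.07 (Sostdc1, SE 0.23) to 0.26 (Prlr, SE 0.28). All were lower than without this covariate except Igf2, at 0.17 (SE 0.29) in place of 0.08.

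Meningeal fibroblasts make Igf2 and lie against the choroid plexus. Their 16 markers had a median r with Ttr of 0.230, with 0 slopes past the threshold in edgeR, 6 at an unadjusted p under 0.05 and 0 in DESeq2. Their summed level was 196 to 238 CPM in the wild type (median 218) and 206 to 343 CPM in Fmr1-/y (median 223), led by Dcn, Col1a2, Pdgfra and Fmod. The mean log2 CPM of the meningeal markers had an SD over libraries of 0.17 in the wild type and 0.39 in Fmr1-/y. This mean had r = 0.513 with Igfbp2 and 0.450 with Igf2. Between genotypes 15 of 16 were above 0 with a median log2 fold change of 0.34, 0 passed in edgeR, 5 had an unadjusted p under 0.05 and DESeq2 passed Col1a1. With the meningeal mean as a covariate Igfbp2 was at 0.46 (SE 0.13) between genotypes and Igf2 at -0.21 (SE 0.25). Folr1 was at 0.42 (SE 0.17), Ttr at 0.29 (SE 0.19) and the remaining members at 0.10 (Sostdc1) to 0.21 (Aqp1). Each member was lower than without this covariate. Ependymal cells border the epithelium in the ventricle wall. Their 12 markers, led by Foxj1, Rsph1, Ccdc153 and Rarres2, had a median r of 0.557 with Ttr and of 0.661 with Igfbp2, with 0 slopes past the threshold in edgeR, 6 at an unadjusted p under 0.05 and Rsph1 alone in DESeq2. Between genotypes 8 of 12 were above 0 with a median log2 fold change of 0.02, and 0 passed in edgeR, at an unadjusted p under 0.05 or in DESeq2. Their summed level was 242 to 409 CPM in the wild type and 251 to 472 CPM in Fmr1-/y. The mean of the ependymal markers had r = 0.752 with Igfbp2 and 0.592 with Ttr, and it was not used as a covariate.

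In the remaining lists, 12 brain endothelial markers held 1 gene past the threshold, Slco1c1, a thyroxine transporter that the choroid plexus also makes (slope 0.84, SE 0.10, adjusted p = 5.9e-04). The endothelial median r was 0.231, and the summed level was 172 to 241 CPM in the wild type and 196 to 305 CPM in Fmr1-/y. Between genotypes 12 of 12 endothelial markers were above 0 with a median log2 fold change of 0.35, near the 0.38 of the members, and 0 passed in edgeR, 9 had an unadjusted p under 0.05 and 0 passed in DESeq2. The 12 microglial markers had a median r of 0.218 and the 12 oligodendrocyte markers one of 0.271. On the slope, 0 of either list passed in edgeR, with 0 and 1 at an unadjusted p under 0.05 and 0 in DESeq2. Between genotypes 9 of 12 microglial markers (median log2 fold change 0.06, 1 at an unadjusted p under 0.05) and 1 of 12 oligodendrocyte markers (median -0.26, 2 at an unadjusted p under 0.05) were above 0, as were 0 of 10 CA1 markers (median -0.13, 3 at an unadjusted p under 0.05), and 0 genes of these lists passed in edgeR or DESeq2. For 9 of the 10 CA1 markers r with Ttr was negative, with Man1a at 0.257 as the exception. Their median r was -0.464, with Camk2a at -0.465, Wfs1 at -0.429, Slc17a7 at -0.675 and Fibcd1 at -0.537. None of the 10 CA1 markers passed the slope test in edgeR or DESeq2, and 3 had a negative slope at an unadjusted p under 0.05. Rn45s, the ribosomal precursor, had r = -0.635 with Ttr, -0.683 with Igfbp2 and -0.269 with Igf2. The part of these other cell types and of Rn45s in the levels of the 10 genes was not tested beyond the covariates given.

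**Figure D4:**
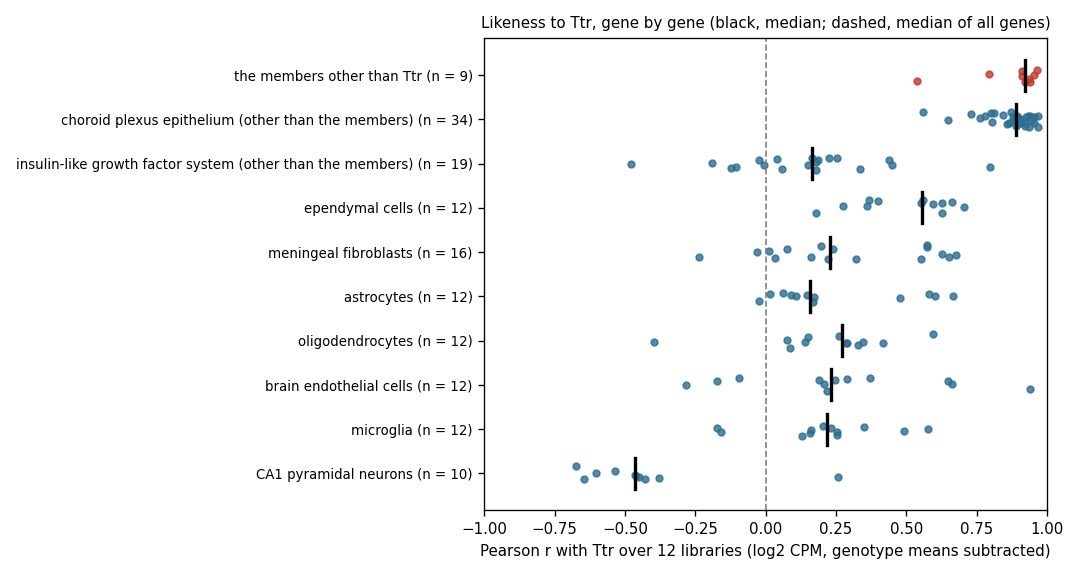
Pearson r with Ttr for each gene of each list, over 12 libraries after subtracting genotype means, with a bar at each list's median and a dashed line at the median of all genes (0.002). The 9 members (0.538 to 0.965) and the 34 other choroid plexus genes (median 0.891) lie to the right, ependymal genes at a median of 0.557, and CA1 markers at -0.464.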

How the data were processed

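Whole-number read counts per gene were deposited by the authors for 12 libraries. In their pipeline, 50-base single reads of stranded poly-A libraries, sequenced 4 libraries to a lane, were aligned to mm10 with TopHat2 2.1.1 and Bowtie2 2.2.8, alignments with over 3 mismatches were discarded, and HTSeq 0.6.1p1 counted reads on the strand opposite to the read. Which libraries shared a lane was not given in the sources used here. Gene symbols came from the count table. Genes with at least 15 reads in total were kept (17823). TMM-normalized CPM were computed from the counts, and log2 CPM used a prior count of 2. edgeR 4.0.16 in R 4.3.3 (quasi-likelihood test, Benjamini-Hochberg over all genes, threshold 0.05) gave the genotype comparison and the slope on Ttr with a genotype term, for 17822 genes. DESeq2 1.42.0 was an alternative. Correlations were tested with exact permutations within genotype, 518400 over both genotypes and 720 within one, where the smallest possible p is 0.00139. The scripts were tested on simulated data. The 10 genes and the marker lists were chosen with earlier results of these data known, so no p-value was computed over a list. Named genes were the 10 members, the 10 most and 5 least like Ttr and the 5 most like Igfbp2 by r, the 4 most abundant of each list and any gene past a threshold; the 5 choroid plexus genes that did not pass, Mfrp, Man1a, Igfbp7, Igf2r, H19 and Rn45s were named after their values were seen. Each library is a separate pool of mice.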

Additional observations from a re-analysis of the deposited data

How the results depend on the processing

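The correlation of Igfbp2 with Ttr (main r 0.912) kept its direction and its side of the threshold under all 19 alternatives, with r of 0.839 to 0.968 and exact permutation p of 1.06e-04 to 0.00833, and 0.886 to 0.947 with 1 library left out. The number of genes with a slope on Ttr past the threshold (main 141) was 307 with DESeq2, 249 with no genotype term and 251 with total counts only, each with 8 of the 9 members, and 44 to 176 with 1 library left out, with 6 to 8 members. Of 180 alternatives for the members' slopes, 164 kept their side of the threshold, 16 lost it and 0 reversed, and the adjusted p ranged from 1.12e-07 to 0.141 for Igfbp2 and from 4.56e-04 to 0.428 for Prlr over edgeR and DESeq2 fits. Whether the replicate numbers pair the libraries was not given in the sources used here. Same-numbered libraries correlated at -0.081 to 0.0899 over all genes and -0.190 to 0.257 over genes of at least 1 CPM. Over all genes, 0 of 12 libraries correlated best with their own number in the other genotype. Correlations over many genes cannot decide whether the numbers are pairs for the 10 genes. With the replicate number as a block, the slope count was 0, with 911 genes at an unadjusted p under 0.05 in edgeR, the slope of Igfbp2 was 0.79 (adjusted p = 0.141), and the correlation of Igfbp2 with Ttr was 0.968 (exact permutation p = 0.00833). The genotype count stayed at 4. With the block, 8 of the 10 members and 1496 of all 17823 genes had an unadjusted p under 0.05 in edgeR. Without it, 4 of the 10 members and 1418 of all genes did. Nothing is read from these member counts, because the genes were chosen with this comparison known. The genotype count (main 4) was 84 with DESeq2, 2 to 6 with 1 library left out (2 without each of Fmr1-/y replicates 1, 4, 5 and 6 and wild-type replicates 4, 5 and 6), and, with a covariate, 1 for Ttr, 2 for the astrocyte mean, 1 for the meningeal mean and 1 for the choroid plexus mean. The last 3 covariates, and leaving out Rn45s, were chosen after seeing the data. Of 229 alternatives for the members' genotype differences, 212 moved by less than 1 SD between replicates and 17 by more, all 17 with Ttr or the choroid plexus mean as a covariate. The log2 fold change of Igfbp2 ranged from 0.30 to 0.69. Where a count moved, the cause was not tested. The 6 libraries per genotype, each a pool of mice, limit the precision.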
